A study of Rattus norvegicus with 8 samples.

Results

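The rat cDNA clones of the libraries UI-R-A0 and UI-R-A1 were taken as all spots whose name begins with either library code. They numbered 1999 of the 8778 clones on the arrays, 1492 of them from UI-R-A0 (A0 below) and 507 from UI-R-A1 (A1 below). The 6779 clones of the other UI-R libraries served for comparison. The name of a clone gives its library, its plate code and its well, and neither the arrays' tables nor the gene table used here pairs a clone with a gene. The clones are therefore described by library, plate, position, brightness and dye ratio, and not by transcript.

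A cDNA library is a collection of cloned copies of the messenger RNAs of a tissue or of pooled tissues, and clones sequenced from one end give expressed sequence tags. On a spotted cDNA array the insert of each clone is printed as a spot, and labelled cDNA made from an RNA sample binds to it. How bright the spot becomes depends on how abundant the matching transcript is in the RNA, and also on how much DNA was printed, how long the insert is and what else binds to it. Brightness of different clones is therefore a property of the spots and is not an expression level. Cy3 and Cy5, the green and the red dye, differ in how well they are built into or coupled to cDNA, in their fading and in the detector settings, so a ratio of Cy5 over Cy3 away from the array's norm can arise with no difference in RNA. A self-self hybridisation, in which the same RNA carries both dyes, measures that dye effect directly.

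The study hybridised total RNA of 1 rat control mix, whose name refers to liver, brain and heart, to 8 arrays. The RNA carried the names test and ref, and both were the same sample. On 4 arrays the test was in Cy5 and the ref in Cy3 (test_in_Cy5, replicates 1 to 4), and on 4 the dyes were exchanged (test_in_Cy3, replicates 1 to 4). No strain, sex, age or treatment is given in the labels, and because every array held the same RNA, the spread between arrays and every p-value below are technical. Tissue markers could not be checked, since no clone carries a gene name here.

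Blank spots, 56 per array, were taken as the level of a spot without an insert. They were not uniform. Over the 8 arrays their 95th percentile lay 0.35 to 0.92 log2 units above their median in Cy3 and 1.01 to 1.71 in Cy5. The array test_in_Cy3 replicate 3 stood apart. Its blank median was 182686 in Cy3 and 447122 in Cy5, whereas on the other 7 arrays no blank median exceeded 101563 in Cy3 or 134132 in Cy5. On it 440 members had a spot whose deposited flag was 0, against 4 to 56 members on the other arrays. The sources used here do not give the meaning of that flag. Some of the results below are given with and without it.

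Every member was printed as 2 neighbouring spots, and both libraries were present in all 48 print blocks. A0 clones came from 42 plate codes and A1 clones from 39. The libraries were not mixed within the blocks. A0 occupied print row 13 of each block with 192 clones in all, rows 14 and 15 with 480 each, row 16 with 102 and row 19 with 238. A1 occupied row 8 with 69 clones, row 9 with 192, row 16 with 4 and row 18 with 242. The only shared row, row 16, thus held too few A1 clones for a comparison of the libraries within a print row, and library and print row cannot be told apart between A0 and A1.

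In brightness A0 and A1 were alike as whole libraries. The median A0 clone lay above the blank median in Cy3 by 0.44, 0.30, 0.31 and 0.39 log2 units on test_in_Cy5 replicates 1 to 4 and by 0.45, 0.42, 0.41 and 0.41 on test_in_Cy3 replicates 1 to 4. The median A1 clone lay above it by 0.43, 0.30, 0.30 and 0.41 and by 0.48, 0.44, 0.42 and 0.43 on the same arrays. The libraries thus moved together from array to array, and neither was the brighter on all 8. The mean difference, A0 minus A1, was -0.010 ± 0.015 log2 units (SD over 8 arrays), below 0 on 5 arrays, with a two-sided p of 0.11 in an exact sign-flip test.

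In Cy5 the contrast to the blanks was larger for both libraries. The A0 medians were 1.20, 1.23, 0.83 and 0.92 log2 units above the blank median on the 4 test_in_Cy5 arrays and 1.33, 1.31, 0.67 and 0.77 on the 4 test_in_Cy3 arrays. The A1 medians were 1.21, 1.19, 0.80 and 0.91, and 1.39, 1.30, 0.71 and 0.78. Again the difference between the libraries, -0.0023 ± 0.033 log2 units, was smaller than its spread over the arrays and changed sign among them, 4 to 4 (exact sign-flip p = 0.87). In all, 24 differences between libraries were tested in this way, and adjusted p-values below are Benjamini-Hochberg values over those 24.

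Both libraries were brighter than the rest of the clone set. The median member exceeded the median of the other clones in Cy3 by 0.25, 0.21, 0.16 and 0.24 log2 units on the test_in_Cy5 arrays and by 0.29, 0.24, 0.23 and 0.29 on the test_in_Cy3 arrays. In Cy5 the differences were 0.60, 0.67, 0.44 and 0.51, and 0.70, 0.67, 0.31 and 0.49. No array or channel went the other way. The means were 0.24 ± 0.043 and 0.55 ± 0.14 log2 units (SD, 8 arrays), which is 1.18-fold in Cy3 and 1.46-fold in Cy5. Each exact sign-flip p was 0.0078, the smallest that 8 arrays allow, with an adjusted p of 0.013.

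Ranked by median brightness among the 10 libraries on the arrays, A0 and A1 took places between 1 and 4 on every array in both channels. E0, with 357 clones, came closest among the larger libraries, at mean medians of 0.37 log2 units above the blanks in Cy3 and 1.01 in Cy5, beside 0.39 and 1.03 for A0 and 0.40 and 1.04 for A1. The C0 clones lay at 0.17 and 0.51 and the C2 clones at 0.018 and 0.15. These are levels of whole libraries that sit in different print rows.

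Where members and other clones shared a print row, the size of the difference varied by row. In row 16, A0 exceeded the other clones by 0.46 ± 0.076 log2 units in Cy3 and 0.94 ± 0.18 in Cy5, on 8 of 8 arrays. In row 9, A1 exceeded C2 and C2p clones by 0.30 ± 0.10 and 0.69 ± 0.15, and in row 18 it exceeded C0, E0 and E1 clones by 0.27 ± 0.085 and 0.52 ± 0.16, on 8 of 8 arrays in both. In row 13, A0 exceeded C0 and E0 clones by 0.15 ± 0.034 and 0.36 ± 0.11. The difference was small in row 19, where A0 exceeded its neighbours by 0.094 ± 0.072 and 0.18 ± 0.16 on 7 of 8 arrays. It was least in row 8, where 69 A1 clones exceeded 407 E1 clones by 0.024 ± 0.071 in Cy3 on 6 arrays and by 0.12 ± 0.14 in Cy5 on 7. Weighted over these rows by the number of members, the difference was 0.22 log2 units in Cy3 and 0.46 in Cy5. Rows 14 and 15 held no clones of other libraries. The 480 A0 clones in each of those rows are therefore not part of this comparison.

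Inside A1 the print rows differed more than the whole libraries did. The 242 clones of row 18 were brighter than the 261 of rows 8 and 9 on 8 of 8 arrays, by 0.42 ± 0.076 log2 units in Cy3 and 0.86 ± 0.14 in Cy5, a 1.81-fold difference in Cy5. The rows also differed in plates, since row 18 drew a few clones each from many plate codes and rows 8 and 9 held a few plates nearly whole. Among the 7 plate codes with clones in both places, 46 clones in row 18 still exceeded 261 in rows 8 and 9 by 0.32 ± 0.086 and 0.63 ± 0.12 on 8 of 8 arrays. Set against row 18 alone, A0 was dimmer than A1 by a mean difference of -0.29 ± 0.053 in Cy3 and -0.57 ± 0.11 in Cy5. Set against rows 8 and 9 it was brighter by 0.13 ± 0.038 and 0.29 ± 0.039. The near equality of the 2 whole libraries is thus an average over a bright and a dim part of A1.

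A0 also varied by row. Its 102 clones in row 16 had a mean median of 0.72 log2 units above the blanks in Cy3 and 1.65 in Cy5, beside 0.36 to 0.37 and 0.97 to 0.98 in rows 13, 14 and 15. Within the 8 plate codes that gave clones to both places, 71 clones of row 16 exceeded 240 of rows 13 to 15 by 0.38 ± 0.061 and 0.67 ± 0.14 on 8 of 8 arrays. Row 19 lay between, at 0.12 ± 0.11 and 0.25 ± 0.22 above rows 13 to 15 on 7 arrays, with the reverse on test_in_Cy3 replicate 3, at -0.11 and -0.17. Whether well choice or the place of the row in the block moves with these differences was not tested.

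Plates differed more than the libraries did. Among 34 A0 plate codes with at least 10 clones, the mean median in Cy5 ran from 0.54 log2 units above the blanks on plate ai to 2.36 on plate bk, with a median of 1.01 over the codes. Plate ac, with 32 clones, reached 2.16 ± 0.45 and plate ad, with 37, reached 1.46 ± 0.42. Among 11 A1 plate codes, the range was 0.41 on plate ey to 2.16 on plate es, with a median of 0.95. Plates bk and es are represented by 11 and 12 clones, so these ends of the ranges rest on few clones. Plate and print row also overlapped, and these ranges do not separate them. All 11 clones of bk were in row 19, all 12 of es in row 18 and 31 of the 32 of ac in row 16. Of the 48 clones of ey, 34 were in row 8 and 9 in row 9.

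A stricter view of brightness asks whether a clone exceeded the 95th percentile of the blanks on all 8 arrays, in Cy3 and in Cy5 alike. Over all 8778 clones 10.8% passed. Among the members 418 passed (20.9%), against 530 of the other clones (7.82%). By library, 293 A0 clones (19.6%) and 125 A1 clones (24.7%) passed. By row the share was 39.2% for A0 in row 16, 36.0% for A1 in row 18 and 11.6% to 20.2% in the other member rows with more than 4 clones. At the other end, 955 members (47.8%) passed on no array, against 71.1% of the other clones. The bright array limits this count: without test_in_Cy3 replicate 3, 658 members (32.9%) and 922 other clones (13.6%) passed on the remaining 7 arrays. Divided into 5 equal bins of mean brightness, the brightest bin held 36.4% of the members and 15.2% of the other clones, and the dimmest held 10.8% and 22.7%.

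The brightest A0 clone that never reached the highest intensity the tables contain was UI-R-A0-bg-f-09-0-UI, in print row 16. Its Cy3 intensity was 2303524 to 3339021 and its Cy5 intensity 4649961 to 5171978 over the 8 arrays, or 4.74 ± 0.27 and 5.10 ± 0.66 log2 units above the blank median. Its rank stayed at the 99.7th percentile or above on every array in both channels. The brightest such A1 clone was UI-R-A1-eg-c-01-0-UI, in row 18, at 3.74 ± 0.28 and 4.88 ± 0.64 log2 units above the blanks.

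The order of the members by brightness, read as a rank correlation, was more stable than that of the other clones. Between the 2 spots of a clone on 1 array, Spearman's rho over A0 clones was 0.97 to 0.99 in Cy3 and 0.98 to 1.00 in Cy5 over the 8 arrays. Over A1 clones it was 0.94 to 0.99 and 0.97 to 1.00. The members' rho exceeded that of the other clones by 0.039 ± 0.016 in Cy3 and 0.014 ± 0.0072 in Cy5, on 8 of 8 arrays. Each exact sign-flip p was 0.0078, with an adjusted p of 0.013. The excess was least on test_in_Cy3 replicate 3, at 0.0033 in Cy3 and 0.0031 in Cy5. On the other arrays it was 0.034 to 0.053 and 0.0086 to 0.027. The size of the difference between the 2 spots did not favour the members. Its median, averaged over arrays, was 0.054 log2 units for members and 0.049 for other clones in Cy3. In Cy5 it was 0.064 and 0.058, and in both channels the order of the groups changed among arrays. A0 and A1 did not differ beyond the spread over arrays: the differences were 0.0028 ± 0.0091 (exact p = 0.55) and 0.0030 ± 0.0073 (exact p = 0.16).

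Between arrays of the same label number, rho over members in Cy3 was 0.95, 0.96, 0.77 and 0.93 for numbers 1 to 4, against 0.86, 0.86, 0.56 and 0.75 over the other clones. In Cy5 it was 0.97, 0.98, 0.82 and 0.93, against 0.90, 0.94, 0.63 and 0.75. The low value at number 3 involves test_in_Cy3 replicate 3. Over all 28 pairs of arrays, the members' rho in Cy3 was 0.77 to 0.81 in the 7 pairs with that array and 0.89 to 0.96 in the others. These correlations are descriptions over clones that share arrays, hybridisation and print, and they carry no test. A wider range of brightness by itself raises such a correlation. The span from the 10th to the 90th percentile of the members was 1.49 to 2.45 log2 units in Cy3, against 0.81 to 1.60 for the other clones.

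The rank percentile of a clone among all 8778 varied over the 8 arrays with a median SD of 7.85 points for members and 10.5 for other clones. From the dimmest to the brightest bin, the medians were 10.9 and 10.8, 12.8 and 13.8, 11.8 and 12.9, 8.16 and 8.01, and 2.19 and 2.68. Members were thus lower in 3 of the 5 bins and higher in the dimmest and the fourth. With duplicates compared within bins of brightness and averaged over bins, the members' rho exceeded that of the other clones on 8 of 8 arrays. The excess was 0.062 ± 0.033 in Cy3 and 0.023 ± 0.014 in Cy5 (exact sign-flip p = 0.0078 each). Each group's bins were weighted by its own clone counts, and the brightest bin held 36.4% of members and 15.2% of other clones. This comparison therefore does not match the groups for brightness. Without test_in_Cy3 replicate 3 the medians over all bins fell to 5.30 and 8.73. A0 and A1 had medians of 7.90 and 7.76 over the 8 arrays.

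Single members that changed rank most did so on that same array. Among A0 clones above the blanks on at least 4 arrays, UI-R-A0-ah-d-09-0-UI had the largest rank SD, 26.8 points. It ranked at the 74.3rd to 81.7th percentile in Cy3 on 7 arrays and at the 2.40th on test_in_Cy3 replicate 3, where its Cy5 intensity was 161896 against 263958 to 511277 elsewhere. In A1 the largest was UI-R-A1-eu-d-11-0-UI, with an SD of 20.5 points, at the 81.1st percentile or above in Cy3 on 7 arrays and at the 25.3rd on test_in_Cy3 replicate 3. In both clones the other 7 arrays lay within 8 rank points of each other in Cy3.

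The dye ratio, log2 Cy5 over Cy3, was read before and after loess, a smooth correction that removes the trend of the ratio with brightness on each array. Before it, after background correction, the median member lay above the median other clone by 0.080, 0.24, 0.16 and 0.052 log2 units on the test_in_Cy5 arrays and by 0.089, 0.099, 0.046 and 0.030 on the test_in_Cy3 arrays. All 8 differences were above 0, with a mean of 0.099 ± 0.068 (exact sign-flip p = 0.0078, adjusted p = 0.013). The members were also the brighter clones. After loess the difference was -0.0031 ± 0.0062, above 0 on 3 arrays and below 0 on 5 (exact p = 0.19, adjusted p = 0.24).

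After loess, the A0 median ratio lay between -0.0057 and 0.019 log2 units on the 8 arrays, and the A1 median between -0.026 and 0.023. Their difference was -0.0023 ± 0.013 (exact sign-flip p = 0.62), 4 arrays to each side. Within A1, row 18 exceeded rows 8 and 9 on 7 of 8 arrays, by 0.041 ± 0.043 log2 units (SD over 8 arrays). The values ran from -0.0047 to 0.12 and are given without a test.

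Single clones were tested with limma for a dye effect, the mean log2 Cy5 over Cy3 of all 8 arrays after loess, and a clone was called where the p-value adjusted over all clones was under 0.05. Of the 8778 clones 2.63% were called. Cy5 was higher in 0.456% of them and Cy3 in 2.18%. Here and below, Cy5 or Cy3 higher means a ratio above or below 0 after loess, relative to the array's trend. It does not mean that the deposited intensity was higher in that dye. Among the 1999 members 64 were called (3.20%), at these settings a share near that of the whole array. Cy3 was higher in 57 of them and Cy5 in 7. A0 gave 50 calls (3.35%), 6 of them with Cy5 higher, and A1 gave 14 (2.76%), 1 of them with Cy5 higher. The median size of the dye effect over all members was 0.080 log2 units, against 0.12 over the other clones. With loess per print block the sizes were 0.061 and 0.082. The gap depended on the background correction. Without it the sizes were 0.033 and 0.032, and with plain subtraction both were 0.033. Over the clones above the blanks on all arrays they were 0.041 and 0.038.

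The number of calls depended on single arrays and on the processing. Without test_in_Cy3 replicate 1, 2 or 4 it was 22, 22 and 32, or 1.10%, 1.10% and 1.60% of the members, where 0.353%, 0.558% and 0.9% of all clones were called. Without test_in_Cy5 replicate 2, 3 or 4 it was 25, 39 and 39, or 1.25%, 1.95% and 1.95%, where 0.684%, 1.28% and 1.34% of all clones were called. Without test_in_Cy3 replicate 3 it was 60 (3.00%, where 2.6% of all clones were called) and without test_in_Cy5 replicate 1 it was 44 (2.20%, where 1.72% were). In all 8 fits that left out 1 array, 21 of the 1999 members kept their call with its sign, 14 of them clones at the intensity ceiling described next. Among all 8778 clones 30 did so. Of the 6779 other clones 9 did, 2 of them at the ceiling. The split by direction moved as well. With no background correction, 229 members (11.5%) were called, 109 with Cy5 higher, where 8.61% of all clones were called. With loess per print block 24 (1.20%) were called, 1 with Cy5 higher, where 0.399% of all clones were called. A further fit was limited to the 948 clones that exceeded the blanks throughout. It called 47 of 418 members (11.2%), 16 with Cy5 higher, where 8.97% of the 948 were called. Median centring in place of loess called 590 members (29.5%), 371 of them with Cy5 higher, a share near the 28.9% of all clones. Plain background subtraction called 210 (10.5%), 96 of them with Cy5 higher, where 7.44% of all clones were called. The authors' deposited values gave 171 (8.55%), 81 with Cy5 higher, where 5.09% of all clones were called.

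The called members fell into a very bright and a dim set. The very bright set was made of clones at the ceiling. The highest intensity in the tables was 5242800, and a spot that reads it gives only a lower limit of its signal. Of 22 clones with such a spot on any array, 17 were members, 16 from A0 (1.07% of that library) and 1 from A1 (0.197%), against 5 among the other clones (0.0738%). The members had 118 Cy5 readings at the ceiling over the 8 arrays and 2 Cy3 readings, so it is mostly the Cy5 side of their ratio that is bounded. On test_in_Cy5 replicates 1 to 4 there were 12, 11, 0 and 1 such members, and on test_in_Cy3 replicates 1 to 4 there were 16, 11, 12 and 3.

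All 17 ceiling members were called with Cy3 higher, with a negative ratio after loess on each of the 8 arrays. In deposited intensity each of them had a higher median in Cy5 than in Cy3, so the sign is relative to the array's trend. Their mean ratios as measured, with ceiling spots at their value, ran from -1.73 to -0.59 log2 units with a median of -1.35, and 15 of the 17 were also called with loess per print block. The A0 clones among them came from 8 plate codes and 15 print blocks, with 7 in row 16 and 7 in row 15. Plate ad gave 5 of its 37 clones, plate bg 3 of 32 and plates ac and ae 2 each. The clone UI-R-A0-ae-f-01-0-UI, singled out after its values were seen, was at the ceiling on 7 arrays, in 12 Cy5 spots and 2 Cy3 spots, which are all the Cy3 ceiling readings of the members. Its median Cy3 intensity was 5060080, and with both channels bounded its ratio has no exact size. The 1 A1 clone, UI-R-A1-ex-c-05-0-UI, read the ceiling in 1 spot on test_in_Cy3 replicate 1. Its log2 ratios were -0.81, -0.70, -0.33 and -0.73 on the test_in_Cy5 arrays and -0.82, -0.46, -0.74 and -0.14 on the test_in_Cy3 arrays, which gives -0.59 ± 0.089 (SE, limma adjusted p = 0.023), a call kept in 4 of the 8 fits that left out an array.

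Members just below the ceiling showed the same sign. Of 7 members whose mean log2 Cy5 intensity was at least 22 with no spot at the ceiling, 5 were called, all with Cy3 higher, and their median dye effect was -0.72 log2 units. Of 78 members between 21 and 22 on that scale 1 was called, and of 207 between 20 and 21 none was called. The median dye effects there were 0.012 and 0.013. The 4 clones of other libraries at 22 or above, again without a ceiling spot, had a median of -0.62. The brightest A0 clone named above, UI-R-A0-bg-f-09-0-UI, is among these: its ratios were -1.21, -1.32, -0.97 and -1.02 on the test_in_Cy5 arrays and -1.10, -1.12, -1.31 and -0.48 on the test_in_Cy3 arrays. Its dye effect was -1.07 ± 0.093 (SE, limma adjusted p = 0.0026). Its Cy5 intensity, 4649961 to 5171978, lay close under the ceiling of 5242800. Whether readings this close to the ceiling are also bounded was not tested. The brightest A1 clone below the ceiling, UI-R-A1-eg-c-01-0-UI, was at -0.28 ± 0.096 (SE) and was not called (limma adjusted p = 0.13), with a ratio above 0 on 1 array.

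The dim set held most of the other calls. Of 47 called members without a ceiling spot, 38 exceeded the blanks on no array and 7 on all 8. Cy3 was higher in 40 of them, with a median effect of -0.63 log2 units, and Cy5 in 7, with effects of 0.27 to 0.34. Calls among the other clones had the same make-up. Of 163 without a ceiling spot, 150 exceeded the blanks on no array and 5 on all 8. Cy3 was higher in 130 of those 163, with a median effect of -0.71, and Cy5 in 33. Counted by position, ceiling clones included, 11 of 192 A1 clones in row 9 were called (5.73%) and 1 of 242 in row 18 (0.413%). In A0, 21 of 480 clones in row 15 (4.38%) and 11 of 480 in row 14 (2.29%) were called. A0 row 16 gave 11 of 102 (10.8%), 7 of them at the ceiling. The share was 2.90% in A1 row 8, 2.08% in A0 row 13 and 1.26% in A0 row 19, beside 2.63% of all clones. Without background correction 35 of the 47 kept their call and sign, and with loess per print block 8 were called. For the 163 other clones these counts were 119 and 7.

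Among the called members of one sign on 8 arrays and without a ceiling spot, the 2 with the largest Cy3-higher effects exceeded the blanks on no array. UI-R-A0-bb-f-03-0-UI had log2 ratios of -1.09, -3.18, -1.75 and -1.16 on the test_in_Cy5 arrays and -1.68, -2.34, -0.35 and -0.98 on the test_in_Cy3 arrays, an average of -1.57 ± 0.29 (SE, limma adjusted p = 0.037). All 8 ratios were negative, yet the clone lay at -0.0050 ± 0.046 log2 units from the blank median in Cy3 and at -0.15 ± 0.050 in Cy5. Without background correction its dye effect was -0.12 (limma adjusted p = 0.0082), and 1 of the 8 fits that left out an array kept its call. The other clone, UI-R-A0-ao-e-06-0-UI, showed ratios of -2.81, -2.44, -2.66 and -2.26 on the test_in_Cy5 arrays and -0.18, -1.16, -0.61 and -0.41 on the test_in_Cy3 arrays. Its dye effect of -1.57 ± 0.11 (SE, limma adjusted p = 0.0024) was called in all 8 fits that left out 1 array, and it became -0.13 without background correction (limma adjusted p = 0.0095). With loess per print block neither was called, at -0.93 (limma adjusted p = 0.22) and -0.92 (limma adjusted p = 0.094).

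On the Cy5 side, UI-R-A0-ax-h-08-0-UI had ratios of 0.56, 0.35, 0.25 and 0.36 on the test_in_Cy5 arrays and 0.35, 0.52, 0.17 and 0.12 on the test_in_Cy3 arrays, which averages 0.33 ± 0.059 (SE, limma adjusted p = 0.035). UI-R-A0-ay-b-01-0-UI had ratios of 0.24, 0.47, 0.23 and 0.27 and of 0.50, 0.22, 0.43 and 0.069, which averages 0.30 ± 0.060 (SE, limma adjusted p = 0.046). Both were above 0 on all 8 arrays and above the blanks on none. Their calls rested on all arrays together: 1 of 8 fits that left out an array kept the first and none kept the second. Neither was called with loess per print block. Without background correction their dye effects were 0.065 (limma adjusted p = 0.056) and 0.091 (limma adjusted p = 0.034).

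The swap-corrected ratio of test over ref asks whether the RNAs named test and ref differed, which the labels say they did not. No clone was called by limma in any library, 0% of the 8778. At an unadjusted p under 0.05 there were 130 members (6.50%) and 495 other clones (7.30%), and ordinary least squares also called none. The median ratio was 0.0024 log2 units over A0 and 0.0081 over A1, and no member exceeded 1 log2 unit in size. The member nearest to a call was UI-R-A0-ao-e-06-0-UI, whose ratios on the test_in_Cy5 arrays all lay below those on the test_in_Cy3 arrays. Its value was -0.98 ± 0.11 (SE), with a limma adjusted p of 0.22, and it was called in 1 of the fits that left out an array, the one without test_in_Cy3 replicate 2.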

How the data were processed

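The 8 arrays carried rat total RNA labelled indirectly, per the labels' protocols, and Cy3 was channel 1 and Cy5 channel 2. The deposited scanner tables hold, per channel and spot, an intensity and the intensity of its local background, not background-subtracted per the file headers. No source used here names the scanner or explains the flag. The authors' own value table, deposited as a score whose scale, centring and method are unstated, served as an alternative. Its column medians were 0.00 to 0.003, and with the sign turned on the test_in_Cy3 arrays it correlated at 0.48 to 0.78 per array with the background-subtracted log2 ratio after loess, so its direction was taken as test over ref.

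Brightness was the log2 of the deposited intensity, averaged over the 2 spots of a clone, minus the log2 median of the blanks. For ratios, intensities were corrected with normexp at an offset of 50, normalised by loess per array (span 0.3, 4 iterations, control spots at weight 0) and averaged by clone. Dye effect and test over ref were the 2 coefficients of a model fitted over 8778 clones with limma 3.58.1 in R 4.3.3 (6 residual and 1.84 prior degrees of freedom, Benjamini-Hochberg adjustment). Differences between libraries were medians per array, tested over 8 arrays by an exact two-sided sign-flip test in Python 3.11.15. The number of arrays limits the precision. The sign-flip test and the limma fit were tested on simulated data.

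Named clones were, among called members of one sign on 8 arrays and without a ceiling spot, the 2 largest effects per direction, plus, for test over ref, the smallest p, and in each library the brightest clone below the ceiling, ceiling clones if 5 or fewer, and the largest rank SD among clones above the blanks on at least 4 arrays. The members, comparisons and this rule were chosen with earlier results of these data known. Clone sequences and gene lists were not used here.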

Additional observations from a re-analysis of the deposited data

Results flagged for a closer look

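Over measures of the members on the 4 arrays of each orientation, 52 groups of 4 values were examined for a value far from the other 3, which chance gives in about 1 of 20 groups, and 4 were found. On test_in_Cy3 replicate 3, 22.1% of A0 clones and 21.7% of A1 clones had a spot with a deposited flag of 0, against at most 2.95% and 2.37% on the other arrays of that orientation. On test_in_Cy5 replicate 3, rho between the spots of an A1 clone in Cy3 was 0.942, against 0.977 to 0.982 on its other arrays. On the same array rho in Cy5 was higher for A0 than for A1 by 0.0207, against 0.00039 to 0.0023. The differences between A0 and A1 were also compared between the orientations, in 6 measures, by exact permutation of 4 against 4 arrays. The smallest exact p was 0.057, for Cy3 brightness, with an adjusted p of 0.26.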

How the results depend on the processing

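Of the settings tried, the excess in brightness and in duplicate rho of members over other clones kept its direction in each one and its exact p under 0.05 in each that has a test. It also did so within the print rows that members share with other clones, which leaves out A0 rows 14 and 15. That alternative was chosen after seeing the data, as were the splits of A1 by row. The differences near 0 did not keep their sign or their side of the threshold, and the cause was not tested. For A0 minus A1 in Cy3 brightness the value was -0.016 without clones at the ceiling, -0.012 with means over clones, -0.29 with A1 of row 18 and 0.13 with A1 of rows 8 and 9. In Cy5 it was -0.023 relative to the print block median, -0.048 with means, -0.57 with row 18 and 0.29 with rows 8 and 9. For the dye ratio of A0 minus A1 it was 0.0017 with loess per print block, 0.0018 with the authors' values, -0.029 with means, -0.021 with row 18 and 0.020 with rows 8 and 9. For the dye ratio of members minus others it was 0.00068 with no background correction, 0.00053 with plain subtraction, -0.0039 with the larger normexp offset of 4000, 0.099 with median centring, 0.00082 with the authors' values, -0.013 within brightness bins, -0.016 with means and 0.0029 within print rows. For duplicate rho of A0 minus A1 in Cy3 it was -0.0044 within brightness bins, -0.0092 with row 18 and 0.023 with rows 8 and 9, and in Cy5 -0.0037 and 0.015. Leaving out each array gave -0.0078 to 0.0066 for Cy5 brightness of A0 minus A1, -0.00022 to 0.0037 for its duplicate rho in Cy3 and 0.00051 to 0.0038 in Cy5. Members above the blanks numbered 19 against the highest blank, 1333 against the blank median and 418 to 658 without each array. Members called for a dye effect numbered 229 with no background correction, 210 with plain subtraction, 590 with median centring and 24 with loess per print block. They numbered 171 with the authors' values and 22 to 60 without each array. Ordinary least squares called 23 (1.15%), where 0.387% of all clones were called. For test over ref, 0 to 1 member was called without each array. Deviations in log2 Cy5 over Cy3 of same-numbered arrays correlated at -0.018, 0.16, 0.016 and 0.063, and not every array correlated best with its own number. These values cannot decide whether the numbers pair the arrays. The dyes were exchanged within a number, so a deviation of a test preparation would change sign. A replicate block has the same limit. With the number as a replicate block 45 members (2.25%) were called for a dye effect, 0 with Cy5 higher, where 1.71% of all clones were called, and 0 for test over ref.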
